A study of Mus musculus with 6 samples.

Results

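Interferon-stimulated effector genes are the genes that a cell switches on once an interferon has bound its receptor. A list of 49 of them was examined, with the interferon regulatory factors (Irf), the Ifi20x family and chemokines left out, and 45 of the 49 were measured among 19505 genes in all. Gbp5, Gbp6, Rnf213 and Ifi44 were not analysed here. Each gene was read from its brightest probe set, and the list was compared array by array between the hearts of 3 mice with chronic kidney disease (CKD) and 3 sham mice. All 6 mice were of the Balb/c strain, with no genetic change named in the labels and 1 Affymetrix Clariom S array per heart. CKD followed 5/6 nephrectomy, in which part of the right renal cortex was electrocoagulated and the left kidney was later removed, while sham mice had a laparotomy that left the kidneys alone. According to the methods, Balb/c males had surgery at an age of 8 weeks. Several sets of sham and CKD mice are described there, without a statement of which set gave the arrays or how long after surgery.

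Type I and type III interferons signal through Janus kinases to a complex that holds Stat2 and Irf9 and binds interferon-stimulated response elements. Interferon gamma acts on its target genes through gamma-activated sites. The induced proteins degrade or hide viral RNA, block the entry, assembly or release of viruses, attack the vacuoles of intracellular pathogens, and sense foreign nucleic acid. Most of them are made at a low level in resting tissue, and immune cells, endothelial cells and fibroblasts of the heart can make them as well as cardiomyocytes.

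Promoter sequence is shown for members that were lower in CKD and for the brightest members with a response element or gamma-activated site, since their levels are described next. The windows are the 250 bases before the RefSeq start in GRCm38.p6, written in the direction of the gene, and capitals mark matches to GAAANNGAA (the core of a response element, on either strand) or TTCNNNGAA (a gamma-activated site, the same on both strands).
Oas1a promoter, chr5:120907526-120907775, strand minus: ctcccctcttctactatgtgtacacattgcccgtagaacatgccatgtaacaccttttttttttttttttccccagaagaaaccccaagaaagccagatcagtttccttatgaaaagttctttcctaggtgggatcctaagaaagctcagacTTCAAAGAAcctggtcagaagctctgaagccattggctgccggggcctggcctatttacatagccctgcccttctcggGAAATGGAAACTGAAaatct
Oas1g promoter, chr5:120887614-120887863, strand minus: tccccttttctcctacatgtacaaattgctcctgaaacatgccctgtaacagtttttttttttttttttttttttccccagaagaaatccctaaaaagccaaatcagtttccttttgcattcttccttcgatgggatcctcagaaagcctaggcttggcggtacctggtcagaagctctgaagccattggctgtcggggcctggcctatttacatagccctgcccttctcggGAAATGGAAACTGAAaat
Ifitm3 promoter, chr7:141010745-141010994, strand minus: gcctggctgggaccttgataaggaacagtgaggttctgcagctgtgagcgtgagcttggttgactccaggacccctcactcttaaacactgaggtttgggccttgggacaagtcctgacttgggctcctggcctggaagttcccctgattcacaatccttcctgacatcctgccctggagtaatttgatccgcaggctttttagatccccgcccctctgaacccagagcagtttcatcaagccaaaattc
Ifitm2 promoter, chr7:140955962-140956211, strand minus: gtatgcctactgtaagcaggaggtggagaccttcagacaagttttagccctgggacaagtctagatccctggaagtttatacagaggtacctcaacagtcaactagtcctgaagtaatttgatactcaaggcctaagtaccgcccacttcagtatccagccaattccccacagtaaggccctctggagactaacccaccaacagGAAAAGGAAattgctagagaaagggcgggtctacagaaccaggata
Gbp7 promoter, chr3:142530086-142530335, strand plus: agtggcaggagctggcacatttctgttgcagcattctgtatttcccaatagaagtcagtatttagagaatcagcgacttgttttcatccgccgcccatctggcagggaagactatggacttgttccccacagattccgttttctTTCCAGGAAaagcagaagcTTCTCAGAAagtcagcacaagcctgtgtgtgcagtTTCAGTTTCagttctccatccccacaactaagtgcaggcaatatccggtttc
Irgm1 promoter, chr11:48871421-48871670, strand minus: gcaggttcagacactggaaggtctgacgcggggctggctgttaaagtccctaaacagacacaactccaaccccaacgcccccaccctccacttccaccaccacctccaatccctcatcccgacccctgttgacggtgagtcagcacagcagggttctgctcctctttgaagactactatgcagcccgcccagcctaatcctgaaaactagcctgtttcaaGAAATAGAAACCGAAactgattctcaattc
Oas1a and Oas1g each held 2 overlapping response element cores within 20 bases of the start, and 100 bases reaching to this block, compared with a shift of 2 bases, were identical at 93 positions. Irgm1 held the same arrangement of 2 overlapping cores. Gbp7 held 1 core and 2 gamma-activated sites, Ifitm2 held 1 core, and the Ifitm3 window held neither motif. A window was found for 32 of the 45 members, and Oas2 and Gvin1 are named only. Of 38 windows of the members, 19 held the core, against 7.13% of all 32851 windows of the same length, and 8 (21.1%) held a gamma-activated site, against 7.02%. A match describes letters in this window and is not evidence of a bound site.

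**Figure D1:**
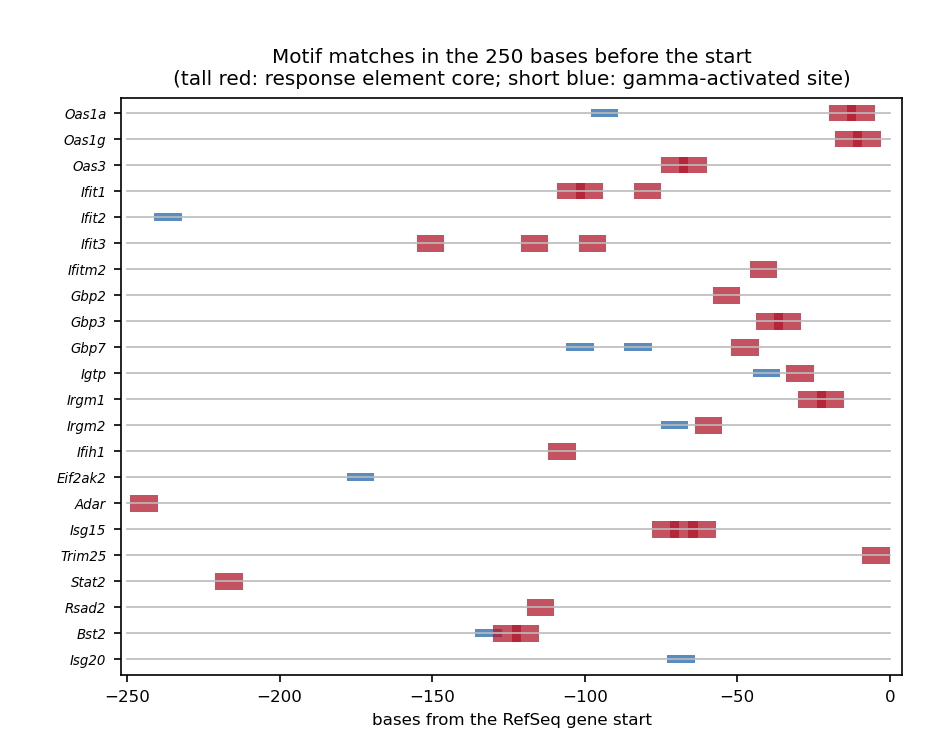
Positions of motif matches in the 250 bases before the RefSeq start (x axis, bases from the start) for each measured member with a match (rows), with response element cores as tall red boxes and gamma-activated sites as short blue boxes; darker red marks overlapping cores. Oas1a, Oas1g and Irgm1 carry their cores within 30 bases of the start, and Igtp and Irgm2 carry a gamma-activated site just ahead of a core.

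The deposited values were log2 levels, so a difference of 1 is a doubling. Median log2 levels of the 6 arrays lay between 4.83 and 4.86. Markers of cardiomyocytes were among the brightest genes, with mean log2 levels between 17.00 and 18.01 over the 12 markers. Other markers set arrays apart within groups. The mean log2 level of 9 neutrophil markers was 4.27 on sham 1 against 7.20 and 7.16 on sham 2 and 3, and 7.20 on CKD 1 against 5.29 and 4.56 on CKD 2 and 3. The atrial light chain Myl7 was at 12.34 on CKD 3 and at 2.74 to 8.35 on the others. The Y-linked gene Eif2s3y was at 1.24 and 1.26 on sham 2 and 3, at 4.02 to 4.24 on sham 1, CKD 1 and CKD 2, and at 7.90 on CKD 3. Y-linked signal was thus uneven among hearts described as male. It also differed between the groups. Eif2s3y, Uty and Kdm5d were higher in CKD by the criterion given below, with overlapping groups. Their log2 differences were 3.07, 2.73 and 1.57, with adjusted p from 0.453 to 0.536 by limma. Whether this bears on the members was not tested. In RNA from heart tissue, fewer cells of a type and less RNA per cell cannot be told apart. The arrays are separate mice. The p-values below set the difference between groups against the spread of hearts within groups. In limma this spread is drawn towards that of all genes.

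Across the list, 5 of 45 members were lower in CKD hearts (11.1%) and 0 were higher, where a call needed a change of more than 1.5-fold and a limma p under 0.05 before adjustment. Of all genes, 3.19% were lower and 3.13% were higher by the same criterion. The lower members were Oas1a, Oas1g and Oas2 of the oligoadenylate synthetase family, the membrane protein Ifitm3, and the giant GTPase Gvin1. At a Benjamini-Hochberg adjusted p under 0.05 from limma, 0 members passed, and 2 of all genes did (0.0103%). With an unadjusted limma p under 0.05 and no limit on the fold, 8 of 45 members were below and 1 was above sham. Of all 19505 genes, 898 were below and 885 above. The methods' t-test gave 5 members and 1537 of all 19505 genes at an unadjusted p under 0.05. It gave 0 members and 0 of all genes at an adjusted p under 0.05. The lowest adjusted p of a member was 0.344 from limma. An exact two-sided permutation test of 3 against 3 hearts cannot go below 0.1.

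The median log2 difference of the 45 members, CKD minus sham, was -0.28 (quartiles -0.50 and 0.04), beside 0.00 over all genes (quartiles -0.20 and 0.19). The difference was below 0 in 31 members and above 0 in 14. In 8 members every CKD level lay below every sham level (17.8%, against 6.71% of all genes), and in 1 member every CKD level lay above (2.22%, against 6.93%). The 8 were Oas1a, Oas1g, Oas2, Mx2, Gvin1, Ddx58, Zbp1 and Rtp4, and the 1 was Oas1b.

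**Figure D2:**
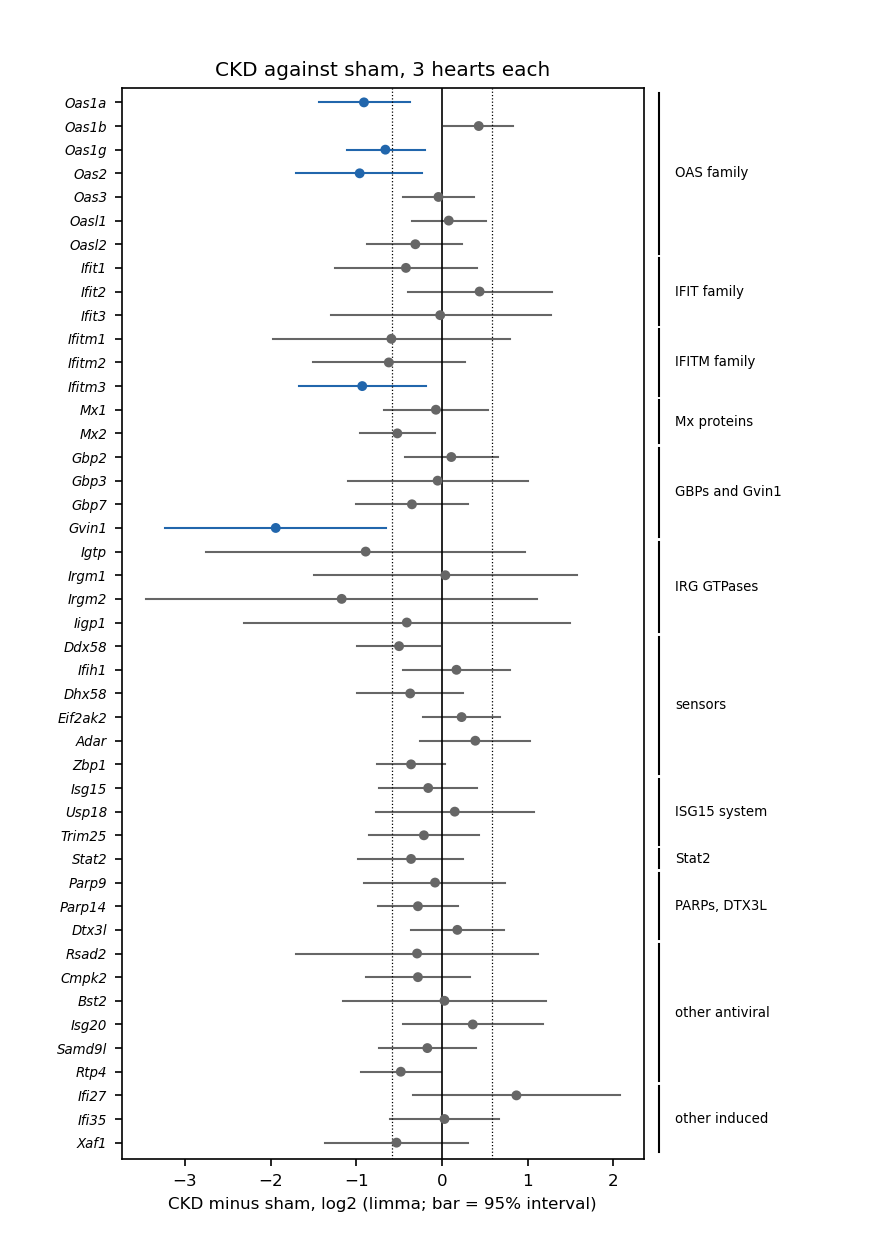
Log2 difference CKD minus sham (x axis) for the 45 members (rows, grouped by role), with points for the limma estimate, bars for its 95% interval and dotted lines at a 1.5-fold change; blue marks the 5 members past the criterion. The intervals of the immunity-related GTPases are the widest of the role groups, and Gvin1 has the most negative estimate, -1.94.

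The oligoadenylate synthetases make a short messenger from ATP when they bind double-stranded RNA, and this messenger activates an RNase that degrades viral and cellular RNA. Of the 7 measured genes of this family, all on chromosome 5, 3 were lower in CKD and 0 were higher, beside 3.19% and 3.13% of all genes. Log2 levels of Oas1a (chr5:120896256-120907544 in the same build) were 4.51, 4.89 and 4.82 in sham 1, 2 and 3 and 4.03, 4.07 and 3.40 in CKD 1, 2 and 3. Every CKD heart was below every sham heart. Oas1a was 1.87-fold lower in CKD (log2 difference -0.91, standard error 0.24, 95% interval -1.44 to -0.37, adjusted p = 0.344 from limma).

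Oas1g, a paralogue with a closely matching promoter, had log2 levels of 3.64, 4.17 and 4.01 in sham and 3.32, 3.32 and 3.21 in CKD. The CKD hearts lay close together, below all sham hearts (log2 difference -0.66, standard error 0.20, adjusted p = 0.398 from limma). Oas2, a larger synthetase, had log2 levels of 4.49, 4.87 and 4.93 in sham and 4.46, 3.10 and 3.84 in CKD. CKD 1 reached almost the lowest sham level, and CKD 2 was the lowest of the 6 (log2 difference -0.96, standard error 0.33, adjusted p = 0.448 from limma). Oas1g no longer passed the criterion without sham 2 (-0.54), and Oas2 did not pass without sham 3 (-0.88) or with the methods' t-test.

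Oas1b, known in mice for resistance to flaviviruses, lay on the other side. Its log2 levels were 5.69, 5.78 and 5.70 in sham and 6.26, 6.02 and 6.18 in CKD, with all CKD hearts above all sham hearts. The log2 difference of 0.43 (standard error 0.18, adjusted p = 0.511 from limma) was a 1.35-fold change, under the limit of 1.5. The remaining members were Oas3, and the synthetase-like Oasl1 and Oasl2, with log2 differences of -0.04, 0.08 and -0.31 and overlapping groups. Oas3 and Oasl1 lay between 2.21 and 2.64 on every array, among the lowest levels measured. Oas1a, Oas1g and Oas2 were also dim, with mean levels under 4.94, the median over all genes, and without detection calls their signal cannot be told from background on the array. The Oas1 genes are close copies, and how their probes divide the signal between copies was not tested.

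**Figure D3:**
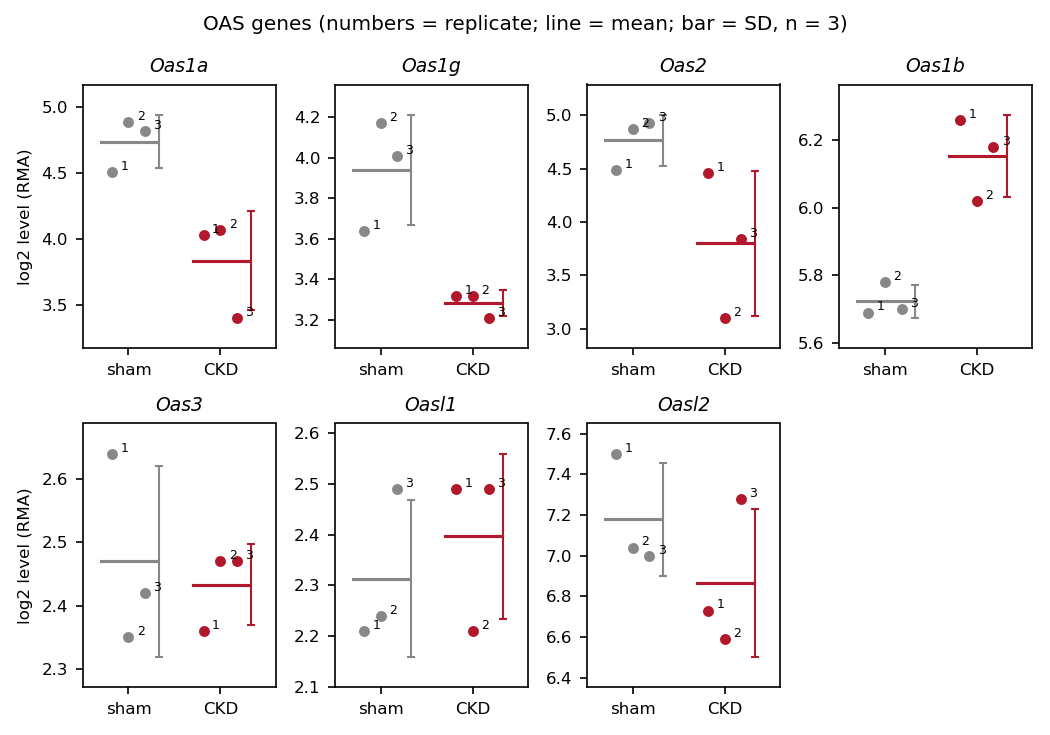
Log2 level (y axis, its own range in each panel) of the 7 measured oligoadenylate synthetase genes in 3 sham (grey) and 3 CKD hearts (red), with 1 point per heart numbered by replicate, a line at the mean and a bar for the SD. Oas1a, Oas1g and Oas2 lie lower in all CKD hearts, Oas1b lies higher in all CKD hearts, and the other 3 overlap.

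The IFITM proteins sit in cell membranes and hinder the fusion of enveloped viruses. Of the 3 measured genes, 1 was lower, beside 3.19% of all genes. Log2 levels of Ifitm3 (chr7:141009590-141010744) were 15.24, 16.15 and 15.97 in sham and 15.47, 14.40 and 14.71 in CKD. CKD 1 lay above sham 1, so the groups overlapped, and CKD 2 and 3 lay below all sham hearts. The mean was 15.79 ± 0.48 (SD, n = 3) in sham and 14.86 ± 0.55 (SD, n = 3) in CKD, a log2 difference of -0.93 (standard error 0.33, adjusted p = 0.453 from limma). Ifitm3 no longer passed the criterion without sham 2, sham 3, CKD 2 or CKD 3, with log2 differences of -0.74, -0.83, -0.70 and -0.85, or with the methods' t-test.

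Ifitm2 and Ifitm1 had log2 differences of -0.62 and -0.59 with adjusted p = 0.694 and 0.836 from limma. Log2 levels of Ifitm2 were 15.16, 16.47 and 16.25 in sham and 16.00, 14.84 and 15.18 in CKD. Sham 1 and CKD 1 stood apart from the rest of their groups in the same way as for Ifitm3. Ifitm1 ranged from 9.43 on sham 1 to 11.90 on sham 2, the widest sham range of any member (2.47). Macrophage markers had a similar order over the hearts. The mean log2 level of the 11 measured macrophage markers was 8.49, 9.90 and 9.80 in sham and 9.31, 8.03 and 8.62 in CKD. Of the 11, 4 were lower in CKD and 0 higher, beside 3.19% and 3.13% of all genes, with a median log2 difference of -0.83. The 4 had adjusted p from 0.362 to 0.523 by limma. Adgre1, C1qb and Aif1 among them had overlapping groups, and Cd163 had a log2 difference of 0.61. Neutrophil markers also had sham 1 lowest in sham and CKD 1 highest in CKD. Their mean log2 levels were 4.27, 7.20 and 7.16 in sham and 7.20, 5.29 and 4.56 in CKD, and 0 of 9 passed the criterion. The part of macrophages and neutrophils in the Ifitm3 result was not tested. The 3 genes are close copies on chromosome 7, and probes shared between them were not examined.

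Guanylate-binding proteins coat and break the vacuoles of intracellular pathogens, and Gvin1 is a very large interferon-induced GTPase whose role is not well known. Log2 levels of Gvin1 (chr7:106156535-106215340) were 12.10, 12.44 and 12.50 in sham and 12.02, 9.42 and 9.78 in CKD. CKD 1 lay within 0.1 of the lowest sham heart, and CKD 2 and 3 lay far below. Gvin1 was 3.84-fold lower in CKD (log2 difference -1.94, standard error 0.57, 95% interval -3.23 to -0.65, adjusted p = 0.379 from limma). Without CKD 1 the log2 difference was -2.75 (standard error 0.22, adjusted p = 0.00989 from limma). CKD 1 was the CKD heart nearest to sham, so this p-value follows its removal and is not separate support. Gvin1 did not pass with the methods' t-test. Near-identical copies of this gene lie in the mouse genome, so the level may be shared among them.

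The 3 measured guanylate-binding proteins Gbp2, Gbp3 and Gbp7 did not pass the criterion, with log2 differences of 0.11, -0.05 and -0.35. Their groups overlapped. CKD 1 was the highest heart for Gbp2 and Gbp3, at 9.83 and 10.04, and CKD 2 was the lowest for Gbp3 and Gbp7, at 8.18 and 10.73.

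The immunity-related GTPases, which guard mouse cells against vacuolar pathogens and are induced mostly by interferon gamma, spread further among CKD hearts than any other role group. Log2 levels of Irgm2 were 8.37, 8.51 and 9.41 in sham and 10.40, 5.48 and 6.89 in CKD. CKD 1 lay above and CKD 2 and 3 lay below all sham hearts. The same held for Igtp, at 8.26, 9.14 and 9.21 in sham and 10.32, 7.00 and 6.62 in CKD, and for Iigp1, at 10.45, 10.43 and 10.99 in sham and 12.60, 8.50 and 9.55 in CKD.

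Irgm1, a regulator of the effector GTPases of this family, was at 10.42, 11.40 and 11.15 in sham and 12.92, 10.16 and 10.02 in CKD, again with CKD 1 above and the other CKD hearts below every sham heart. The distance between the highest and the lowest CKD heart had a median of 3.90 on the log2 scale over the 4 genes, against 0.97 in sham. None passed the criterion. Log2 differences were -0.89 for Igtp, 0.04 for Irgm1, -1.17 for Irgm2 and -0.41 for Iigp1, with standard errors from 0.68 to 1.01 and adjusted p from 0.791 to 0.992 by limma. All 4 showed the split of CKD 1 from CKD 2 and 3, and the plot of levels by heart shows it beside Gvin1, Ifit3, Bst2 and Gbp2.

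**Figure D4:**
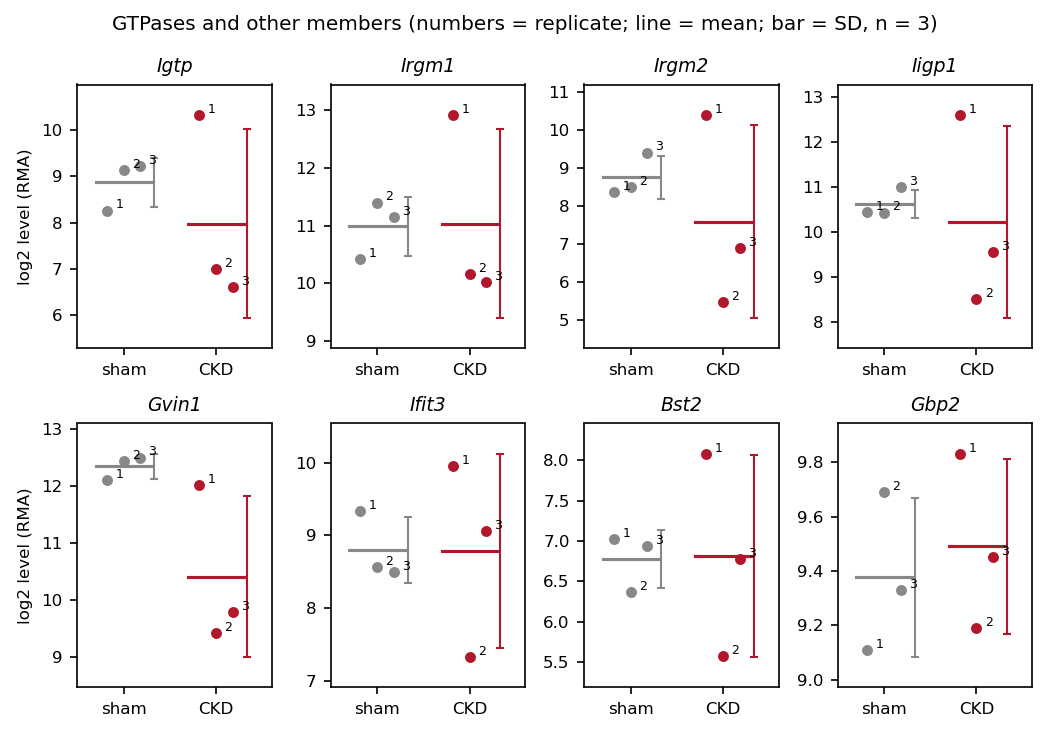
Log2 level (y axis, its own range in each panel) of the 4 immunity-related GTPases and of Gvin1, Ifit3, Bst2 and Gbp2 in 3 sham (grey) and 3 CKD hearts (red), with 1 point per heart numbered by replicate, a line at the mean and a bar for the SD. In the top row CKD 1 lies above and CKD 2 and 3 below all sham hearts, and for Gvin1 CKD 2 and 3 lie at 9.42 and 9.78 against 12.10 or more in sham.

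T and NK cell markers had their highest mean in CKD 1 but followed the split only in part. The mean log2 level of the 10 measured markers was 4.06 to 4.20 in sham hearts, 4.99 in CKD 1, 3.96 in CKD 2 and 3.49 in CKD 3, and CKD 1 was the highest heart for 9 of the 10. CKD 2 was the lowest heart for 2 of the 10 and CKD 3 for 8. The defining markers were dim, with Cd3e at 4.43, 4.08 and 3.16 in CKD 1, 2 and 3 against 4.16 to 4.23 in sham, Cd3g at 5.02, 3.70 and 3.05 against 3.40 to 4.31, and Cd3d at 5.31, 4.73 and 4.06 against 4.15 to 4.57. Cd3d and Cd8b1 (3.96 against 3.13 to 3.79 in sham) thus lay above every sham heart in CKD 2, unlike the GTPases. Cd3e, Klrb1c, Nkg7 and Gzma had the split of the GTPases, with Gzma at 5.93, 3.47 and 3.69 in CKD against 3.75 to 4.59 in sham. The other markers did neither. The 6 measured B and plasma cell markers had another order, with means of 3.07 to 3.56 in sham and 3.95, 3.65 and 4.31 in CKD 1, 2 and 3. The mean of 8 plasmacytoid dendritic cell markers was 6.11 to 6.34 in sham and 6.87, 5.78 and 5.79 in CKD. That set holds Bst2 and Irf7, themselves interferon-induced. Its median deviation was 0.76, 0.03 and -0.40 in CKD 1, 2 and 3. CKD 1 was the highest heart for 5 of the 8, and CKD 2 and 3 were the lowest for 3 and 4. The defining marker Siglech was at 4.42, 4.18 and 3.91 in CKD 1, 2 and 3 against 3.98 to 4.28 in sham. Interferon gamma itself (Ifng) had log2 levels of 3.87, 4.03 and 3.50 in sham and 3.21, 3.71 and 4.25 in CKD. All lay under 4.94, the median over all genes, where signal and background cannot be told apart without detection calls. The part of these cells and of interferon gamma in the result was not tested.

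The IFIT proteins bind viral RNA and hinder its translation. None of the 3 passed the criterion. Log2 levels of Ifit2 were 6.37, 5.78 and 6.36 in sham and 6.77, 5.76 and 7.31 in CKD, with overlapping groups (log2 difference 0.44, standard error 0.37, adjusted p = 0.781 from limma). CKD 2 was the lowest heart for all 3 genes, at 4.23 for Ifit1 and 7.33 for Ifit3. Without CKD 2 the Ifit2 difference was 0.87 and passed the criterion (adjusted p = 0.448 from limma). Ifit1 and Ifit3 had log2 differences of -0.42 and -0.02.

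Mx proteins are dynamin-like GTPases that trap viral nucleocapsids. Mx2 had log2 levels of 6.35, 6.18 and 5.92 in sham and 5.70, 5.67 and 5.52 in CKD. All CKD hearts lay below all sham hearts, but the log2 difference of -0.52 (standard error 0.19, adjusted p = 0.466 from limma) was a 1.43-fold change, under the limit. Mx1 was at 4.14 to 4.41 in sham and 3.64 to 4.67 in CKD. Most inbred laboratory strains carry defective alleles of Mx1 and Oas1b, and the alleles of these mice were not examined here.

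Among 6 sensors of RNA and DNA, 0 passed the criterion. Ddx58, the RNA helicase RIG-I, was at 8.19, 8.55 and 8.30 in sham and 7.88, 7.54 and 8.11 in CKD (log2 difference -0.50, standard error 0.22, adjusted p = 0.524 from limma). Zbp1, a sensor of nucleic acid in the Z form that can start cell death, was at 4.27, 4.17 and 4.21 in sham and 3.98, 3.85 and 3.75 in CKD. Both genes had CKD hearts below every sham heart, with changes of 1.42-fold and 1.28-fold. The helicases Ifih1 and Dhx58, the kinase Eif2ak2, which halts translation, and the RNA editing enzyme Adar had log2 differences between -0.37 and 0.39 with overlapping groups.

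The ubiquitin-like modifier Isg15, the protease Usp18 that removes it from proteins, and the ligase Trim25 had log2 differences of -0.16, 0.15 and -0.21. Trim25, which also acts on RIG-I, was at 6.88, 7.53 and 7.22 in sham and 6.64, 7.56 and 6.81 in CKD (adjusted p = 0.881 from limma). Usp18 stood apart from most members in that CKD 2 was the highest heart, at 7.46 against 5.75 to 6.33 in the others. Stat2, a partner of Irf9, was at 7.30, 7.65 and 7.54 in sham and 7.74, 6.80 and 6.86 in CKD, with the CKD 1 split seen in the GTPases (log2 difference -0.36, standard error 0.27, adjusted p = 0.749 from limma).

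Parp14, which attaches ADP-ribose to proteins, was at 6.79, 6.62 and 6.46 in sham and 6.26, 6.14 and 6.64 in CKD (log2 difference -0.28, standard error 0.21, adjusted p = 0.749 from limma). Parp9 and its partner ligase Dtx3l had log2 differences of -0.08 and 0.18. The sham levels of Parp9 were 6.68, 6.61 and 6.70, a range of 0.09, while its CKD levels were 7.37, 5.70 and 6.67. Close means thus went with a CKD range of 1.67.

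Of 6 other antiviral effectors, 0 passed the criterion. Rtp4, a receptor transporting protein, was at 6.54, 6.94 and 6.93 in sham and 6.51, 6.10 and 6.37 in CKD, with CKD hearts below every sham heart (log2 difference -0.48, standard error 0.21, adjusted p = 0.536 from limma). Rsad2, or viperin, which makes a nucleotide that stops viral RNA synthesis, was at 7.82, 6.61 and 6.56 in sham and 7.99, 5.23 and 6.90 in CKD. Bst2, or tetherin, which holds budding virus at the cell surface, was at 7.03, 6.37 and 6.94 in sham and 8.08, 5.58 and 6.78 in CKD. For both, CKD 1 was the highest and CKD 2 the lowest heart, and the log2 differences were -0.29 and 0.03. Cmpk2, the exonuclease Isg20 and Samd9l had differences of -0.28, 0.36 and -0.17.

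Of the remaining members, Ifi27, a small interferon-induced membrane protein, had the largest estimate above 0. Its log2 levels were 6.96, 8.70 and 8.37 in sham and 9.94, 8.56 and 8.13 in CKD (log2 difference 0.87, standard error 0.54, adjusted p = 0.686 from limma). The groups overlapped, sham 1 and CKD 1 being the extremes. Ifi35 and the XIAP-binding protein Xaf1 had log2 differences of 0.03 and -0.53, and Xaf1 was at 7.97 to 8.18 in sham and at 8.50, 6.83 and 7.37 in CKD.

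For most members the CKD hearts spread more than the sham hearts. The median range over 3 hearts was 0.94 on the log2 scale in CKD and 0.54 in sham for the members, beside 0.52 and 0.42 over all genes. The CKD range was the wider in 37 of 45 members (82.2%), against 59.8% of all genes and 62.9% of genes at or above the median level. It passed 2 on the log2 scale in 8 members (17.78%, against 1.46% of all genes), namely the 4 immunity-related GTPases, Gvin1, Ifit3, Rsad2 and Bst2. The role groups with the narrower median range in CKD were the oligoadenylate synthetases, at 0.28 in CKD and 0.38 in sham, and the IFITM family, at 1.16 and 1.31.

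CKD 1 was the highest of the 6 hearts for 17 of 45 members (37.8%, against 19.2% of all genes), and CKD 2 was the lowest for 25 (55.6%, against 17.9%). The median deviation of the members from their own mean over 6 arrays was 0.07, 0.13 and 0.08 in sham 1, 2 and 3 and 0.21, -0.49 and -0.20 in CKD 1, 2 and 3. Single members departed from these medians in sham as well. Sham 1 was the highest heart for 9 of 45 members, against 17.4% of all genes. It was the lowest for 7 (15.6%, against 17.6% of all genes), so both shares were near those of all genes. Sham 2 was also the highest heart for 9 of 45 members, against 12.7% of all genes, and the lowest for 2 (4.4%, against 12.4%). These are shares within 6 arrays and were not tested, since the genes of an array are not independent.

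**Figure D5:**
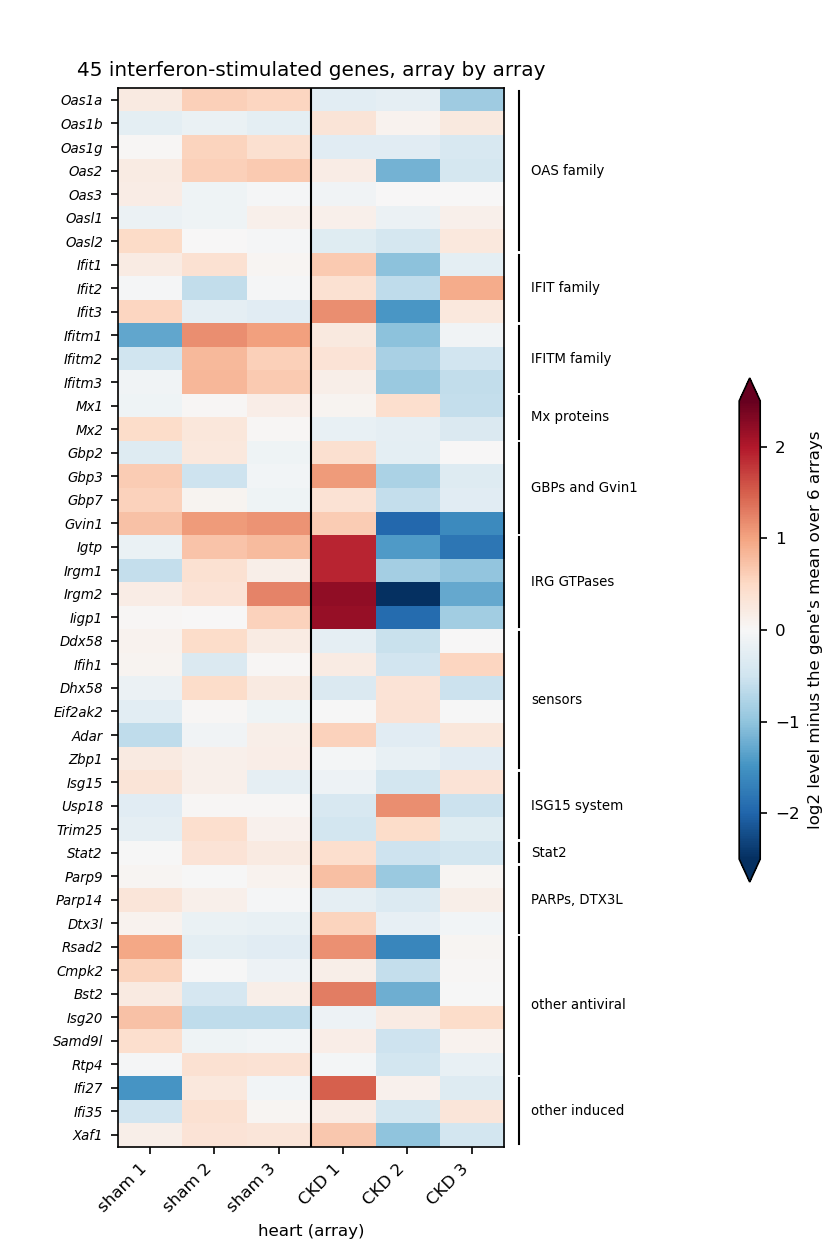
Log2 level minus the gene's mean over the 6 arrays (colour; red above, blue below, arrows mark values past the scale) for the 45 members (rows, grouped by role) in each heart (columns, sham left and CKD right of the line). CKD 1 is mostly red and CKD 2 mostly blue, most strongly in the 4 immunity-related GTPases, while CKD 2 shows Usp18 in red.

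Leaving out CKD 1 raised the number of lower members from 5 to 14, against 4.85% of all genes then lower, and moved the median log2 difference to -0.48. The 14 held all 5 lower members and added Gbp7, Ifit1, Ifitm2, Igtp, Iigp1, Irgm1, Irgm2, Stat2 and Xaf1. Gvin1 and Igtp then passed an adjusted p under 0.05, Igtp with a log2 difference of -2.06 (standard error 0.31, adjusted p = 0.0428 from limma), and Irgm2 reached -2.58 (adjusted p = 0.0617 from limma). How many of all genes passed that adjusted p in this fit is not given here. CKD 1 was the heart that stood apart for Gvin1, Igtp and Irgm2, with Igtp at 10.32 against 7.00 and 6.62 in CKD 2 and 3. These p-values follow its removal and are not separate support. The median was nearest to 0 without CKD 2, at -0.06. Without sham 1, 8 members were lower, against 4.91% of all genes, and Isg20 was higher. Without sham 2, 3 members were lower, Gvin1, Oas1a and Oas2, against 2.71% of all genes. Without sham 3, CKD 2 or CKD 3, the count was 4, 5 and 5, against 2.55%, 3.6% and 2.8% of all genes. Oas1a and Gvin1 passed the criterion in all 6 of these fits.

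Of 60 measured genes of the interferon pathway outside the list, 0 were higher and 3 were lower in CKD (5.0%, against 3.19% of all genes), all of them among 12 sensors and adaptors upstream of interferon. Sting1, the adaptor of cytosolic DNA sensing, was at 7.31, 7.54 and 7.32 in sham and 6.62, 6.37 and 6.23 in CKD (log2 difference -0.98, standard error 0.19, adjusted p = 0.330 from limma). Myd88, the adaptor of most Toll-like receptors, was at 6.89, 7.13 and 7.15 in sham and 6.50, 5.87 and 6.08 in CKD (log2 difference -0.91, standard error 0.22, adjusted p = 0.336 from limma). Both had every CKD heart below every sham heart, with CKD 1 the nearest to sham. Unc93b1, which carries Toll-like receptors to endosomes, was at 6.32, 6.85 and 6.61 in sham and 6.43, 5.35 and 5.77 in CKD (log2 difference -0.74, standard error 0.29, adjusted p = 0.481 from limma). Its groups overlapped, and it did not pass without sham 2, sham 3, CKD 2 or CKD 3 (log2 differences -0.61, -0.73, -0.49 and -0.70) or with the methods' t-test. Without CKD 1, 8 of the 60 pathway genes were lower and 1 was higher, against 4.85% and 5.59% of all genes in that fit. Without sham 1 the counts were 7 and 1, against 4.91% and 3.57% of all genes. Mavs, the mitochondrial adaptor of RIG-I, stood just outside at a log2 difference of -0.58.

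None of 19 interferon genes, 9 receptors and Janus kinases, 7 Irf transcription factors, 10 negative regulators or 3 enzymes of Isg15 conjugation passed the criterion. The 19 interferon genes had mean levels between 2.41 and 6.47. Irf1 was at 8.39, 8.65 and 8.76 in sham and 8.92, 8.46 and 8.14 in CKD (log2 difference -0.09, 95% interval -0.63 to 0.45, adjusted p = 0.942 from limma), and the difference was 0.09 without CKD 3. Irf7, which amplifies the type I response, was at 4.37, 5.13 and 5.42 in sham and 5.56, 3.68 and 4.22 in CKD. Irf9, the DNA-binding partner of Stat2, was at 6.07, 6.67 and 6.71 in sham and 6.75, 5.04 and 5.63 in CKD. Their log2 differences were -0.49 and -0.68, with adjusted p = 0.815 and 0.665 from limma. CKD 1 was the highest and CKD 2 the lowest heart for both, the order seen in Ifit1, Ifit3, Rsad2 and Bst2.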

How the data were processed

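The values deposited by the authors were log2 levels for 22206 probe sets, made by robust multiarray averaging. It subtracts background, forces the arrays to share 1 distribution and summarises each probe set. Its version is not given in the sources used here. Differences that touch most genes of an array are removed by this step. There were no detection calls. A symbol was paired with 19572 probe sets through the platform annotation and 2634 were unnamed here. For 55 genes with several probe sets, none a member, the brightest served.

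The groups were compared over all 19505 genes with limma 3.58.1 (lmFit, then eBayes) under R 4.3.3, with no covariates. The criterion was that of the methods, a fold change over 1.5 with a p under 0.05, left unadjusted as they name no adjustment, and adjusted p-values are Benjamini-Hochberg over all genes. The fit was tested on simulated data. Members past the criterion were named, and in role groups with none the member with the smallest p, with Irf1, Irf7, Irf9 and pathway genes past the criterion. Other genes given heart by heart were chosen after their values were seen. The members and lists were chosen with earlier results of these data known. Promoters come from RefSeq. Also tried were array weights, the methods' t-test, a trended and robust eBayes, quantile normalization again, median centring, leaving out the dimmest 25% or 50% of genes, the mean of probe sets, a replicate block and each array left out in turn. Figures were drawn with matplotlib 3.10.9.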

Additional observations from a re-analysis of the deposited data

How the results depend on the processing

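Array weights, which down-weight arrays that stray, gave 1023 genes higher and 1028 lower, in place of 610 and 623, with 9 members lower and 1 higher and 9 pathway genes lower and 1 higher. The methods' t-test gave 307 genes higher and 318 lower, and 2 members lower, Oas1a and Oas1g. With the dimmest 50% of genes left out, 2 of 36 members (5.56%) were lower, Gvin1 and Ifitm3, against 4.54% of all genes in that fit. Over the fits that left out 1 array each, 472 to 1091 genes were higher and 497 to 957 lower. In these fits 0 to 1 members were higher and 3 to 14 lower, and 0 to 1 pathway genes were higher and 2 to 8 lower. An adjusted p under 0.05 was passed by 0 to 2 members, and how many of all genes passed it is not given here. The members' median ran from -0.48 without CKD 1 to -0.06 without CKD 2. The lower count of members was at its lowest without sham 2 and at its highest without CKD 1, where the pathway count was also highest. Irf1 lay between -0.30 and 0.09 over these fits, above 0 only without CKD 3. The cause was not tested.

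The members' lower count stayed at 5 with a trended and robust eBayes, quantile normalization again, median centring, the dimmest 25% left out, the mean of probe sets and a replicate block. A figure legend of the study speaks of the mice as pairs, and the labels do not say which hearts were paired. Same-numbered sham and CKD hearts did not deviate together (correlations -0.18, -0.03 and -0.19), so the numbers were not taken as pairs in the main comparison. The replicate block gave 602 genes higher and 599 lower, 5 members lower and a members' median of -0.28, and only Unc93b1 among the named genes lost its call (adjusted p = 0.659 from limma). Precision is limited by the number of arrays, and 9 of 45 members lay under the median level of all genes, where signal and background cannot be separated without detection calls.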
